A study of Zea mays with 2 samples.

Results

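The peaks described here are the binding regions of KN1 (KNOTTED1) that fall in the middle of the maize chromosomes. They were chosen by position alone: each chromosome was measured up to the end of its last listed peak, and a peak was kept when its summit lay past 30% and up to 60% of that extent, the fourth to the sixth of 10 equal segments. Of 21168 listed peaks on the 10 chromosomes, 2305 (10.9%) met this rule, and 2299 of these were listed with a nuclear gene model. They are set against the 8085 peaks of the first and last segments, called the outer segments below. The ChIP library came from leaf protoplasts (cells stripped of their walls) of etiolated seedlings of the inbred line B73, transfected with the p1107-KN1 plasmid, which overexpresses KN1 with a BLRP tag. A library of input DNA from protoplasts with the same plasmid was its control. Each library was sequenced once, so no value has a replicate error, and binding of an overexpressed protein in leaf cells is the only condition.

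KN1 is a homeodomain protein of the KNOX class, known for keeping shoot meristem cells undifferentiated, and it is normally kept off in leaf cells. Maize chromosomes are known to carry most of their genes and most of their recombination towards the ends, whereas long stretches around the centromeres consist mainly of transposable elements with scattered genes. The positions of centromeres and of genes without a peak were not used here, so "middle" is a position on the extent and not a chromatin type. The gene models carry identifiers only, none of the 1682 with a peak in the middle matched the RefSeq gene table, and roles are therefore given only for microRNA genes.

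The middle was sparse in listed peaks, but unevenly so. Listed peaks numbered 3.65 per Mb there and 19.2 per Mb in the outer segments. Nuclear genes with a peak numbered 2.66 per Mb in the middle and 12.2 per Mb in the outer segments. The fourth segment held 631 peaks (3.0 per Mb), the fifth held 589 (2.80 per Mb) and the sixth held 1085 (5.16 per Mb). The sparsest segment was in the middle on 7 of the 10 chromosomes, while on chromosomes 6, 8 and 10 it was the third. Only on 2 chromosomes were the 3 sparsest segments exactly the middle ones. The emptiest segment of all was the fourth of chromosome 7, with 9 peaks (0.494 per Mb). The fullest one in the middle was the sixth of chromosome 6, with 179 peaks (10.3 per Mb).

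The density of the middle also varied between chromosomes. Chromosome 6 had the densest middle, with 6.10 peaks per Mb (318 peaks), and chromosome 8 followed with 5.53 (300 peaks). Chromosome 1 had the most peaks, 384 at 4.17 per Mb. Chromosomes 10, 5 and 9 had 4.29, 4.01 and 3.24 per Mb. Densities were lower still on chromosome 3 (2.90 per Mb), chromosome 4 (2.70 per Mb) and chromosome 7 (2.31 per Mb, 126 peaks). Chromosome 2 had the lowest, 2.10 per Mb (154 peaks). Every chromosome had a lower density in its middle than in its outer segments.

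**Figure D1:**
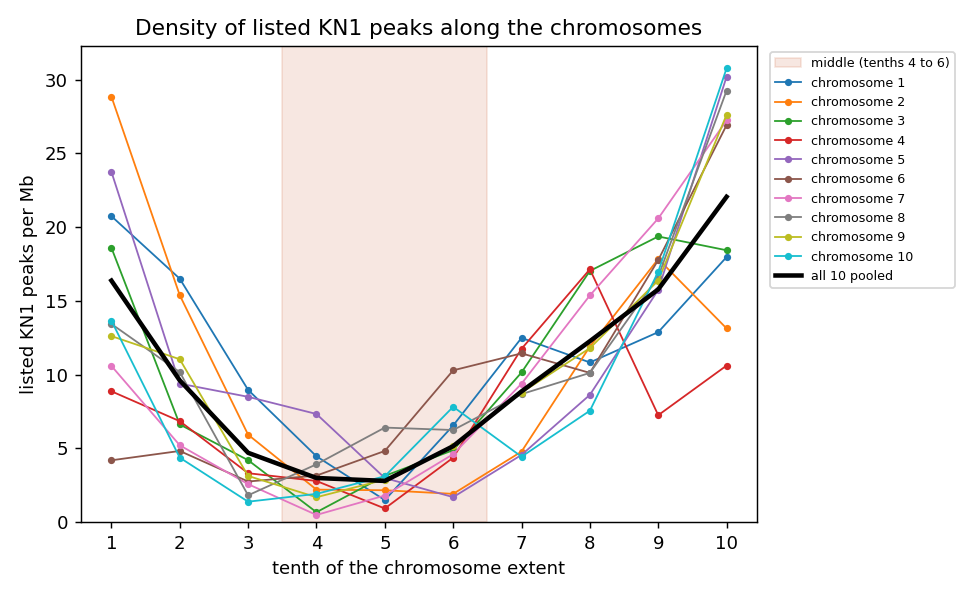
Listed KN1 peaks per Mb (y axis) in each of 10 equal segments of the chromosome extent (x axis), with 1 line per chromosome, the pooled value in black and the middle shaded. The pooled density lies between 2.80 and 5.16 peaks per Mb in the shaded segments and reaches 22.1 in the last one.

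Differences between the middle and the outer segments were tested with the chromosome as the unit, because neighbouring peaks of 1 library are not independent. For each measure, the 10 differences (middle minus outer) entered an exact two-sided sign-flip permutation test, whose smallest possible p is 0.00195. Adjusted p-values are Benjamini-Hochberg values over all 18 measures compared. Of these, 12 passed an adjusted p of 0.05, 4 higher and 8 lower in the middle. Means over chromosomes are given with the SD between chromosomes (n = 10). The test shows how alike the chromosomes are within this pair of libraries and says nothing of other cultures.

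No difference in the length of the genes that carried KN1 peaks was detected. The median gene length was 2931 bp in the middle (quartiles 1284 and 5303 bp, 1682 genes) and 2911 bp in the outer segments (quartiles 1347 and 5083 bp, 5146 genes). The mean difference of the chromosomes' median log2 lengths was 0.01 ± 0.17 (SD, n = 10), a ratio of 1.009, and it was positive on 5 chromosomes and negative on 5 (exact permutation p = 0.807, adjusted p = 0.854). By chromosome, the median length in the middle ranged between 2475 bp on chromosome 1 and 3356 bp on chromosome 3. Gene models under 1 kb made up 19.9% of the genes with a peak in the middle and 18.4% in the outer segments. Those over 8 kb made up 11.8% in the middle and 11.4% in the outer segments.

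A few very long gene models stood out. The longest with a summit inside was Zm00001d001571 on chromosome 5 (minus strand, 131273 bp). It lay at chr5:67089569-67220841 in the coordinates of the file, taken as AGPv4 from the gene identifiers. It had 2 middle peaks inside it, with folds over input of 7.97 at 87462 bp past the gene start and 6.31 at 98569 bp. Each is also listed with a shorter gene on the same strand that holds the summit too, Zm00001d014896 and Zm00001d014895. All 5 of the longest carried 2 or 3 listed peaks, and for the other 4 the strongest summit inside is given. Zm00001d015890 on the same chromosome (91091 bp, minus strand) had a fold of 6.31 at a summit 128 bp past its start. Within Zm00001d015446, also on chromosome 5 (57272 bp, minus strand), it lay 6581 bp past the start with a fold of 33.7. All folds are the authors' own values, ChIP divided by input where the peak is highest, after 1 is added to each. The 3 longest genes of this kind thus lay on 1 chromosome. The next by length were Zm00001d041083 on chromosome 3 (37892 bp), with a fold of 5.61 at 73 bp past its start, and Zm00001d004707 on chromosome 2 (32266 bp), with a fold of 12.6 near its far end, 31994 bp past the start.

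Among listed peaks, middle summits lay closer to their genes. Of these peaks 11.4% (263 of 2299) lay more than 2 kb outside the nearest listed gene, against 15.5% (1248 of 8036) in the outer segments. The mean over chromosomes was 11.3 ± 2.25% in the middle and 15.2 ± 2.31% in the outer segments (SD, n = 10), and the middle was lower on all 10 (exact permutation p = 0.00195, adjusted p = 0.00439). Among summits outside genes, the median distance to the gene was 521 bp in the middle and 738.5 bp in the outer segments. The chromosomes' medians ranged between 330 and 680 bp in the middle and between 557 and 835 bp in the outer segments, lower in the middle on all 10 (ratio 0.699, exact permutation p = 0.00195, adjusted p = 0.00439). The table lists no chromosomal peak whose edge is more than 4998 bp from a gene (its summit can be farther, up to 5194 bp in the middle and 6629 bp in the outer segments). Peak numbers absent from the list were more frequent in the middle, 27.0% of numbers against 11.3%, and their distances are not known. If every absent number were a peak over 2 kb from a gene, the share over 2 kb would be 35.4% in the middle and 25.1% in the outer segments, the opposite direction. The comparison therefore holds for listed peaks and not for all called ones. Neither difference passed the test among genes with 1 listed peak.

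The zones differed in distance on the upstream side, which was not tested by side. The median upstream distance was 343 bp in the middle, against 587.5 bp in the outer segments, while the median downstream distance was 964 bp, against 958 bp. Summits up to 500 bp upstream of a gene start made up 24.8% of the middle peaks (95% interval 23.0 to 26.6%), against 21.5% (20.6 to 22.4%). Over chromosomes this share averaged 25.5 ± 3.60% in the middle and 21.8 ± 2.12% in the outer segments (SD, n = 10), higher in the middle on 9 (exact permutation p = 0.0156, adjusted p = 0.0256). The exception was chromosome 6, with 19.2% in the middle against 23.7%. Without chromosome 2 or without chromosome 9 the adjusted p was 0.0511. Summits more than 2 kb upstream made up 6.22% in the middle and 9.82% in the outer segments. The upstream side as a whole held 67.4% of the middle summits outside genes and 67.0% of the outer ones, a difference that did not pass the test (0.892 percentage points over chromosomes, exact permutation adjusted p = 0.495).

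Around gene starts a larger share of summits lay close to the start in the middle, a comparison that was not tested. Within 500 bp of a start on either side lay 42.3% of middle summits (973 of 2299) and 35.7% of outer ones (2865 of 8036). In both, the fullest 100-bp bin was the first inside the gene, with 8.79% in the middle and 7.64% in the outer segments. The bin just upstream held 8.22% in the middle and 6.71% in the outer segments. From 500 to 400 bp before the start the order was reversed, with 1.91% in the middle and 2.13% in the outer segments. Farther upstream the order varied from bin to bin. It was 1.57% in the middle against 1.59% from 600 to 500 bp before the start, and 1.52% against 1.47% from 700 to 600 bp. From 200 to 300 bp inside the gene the shares were 1.22% in the middle and 0.996% in the outer segments.

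**Figure D2:**
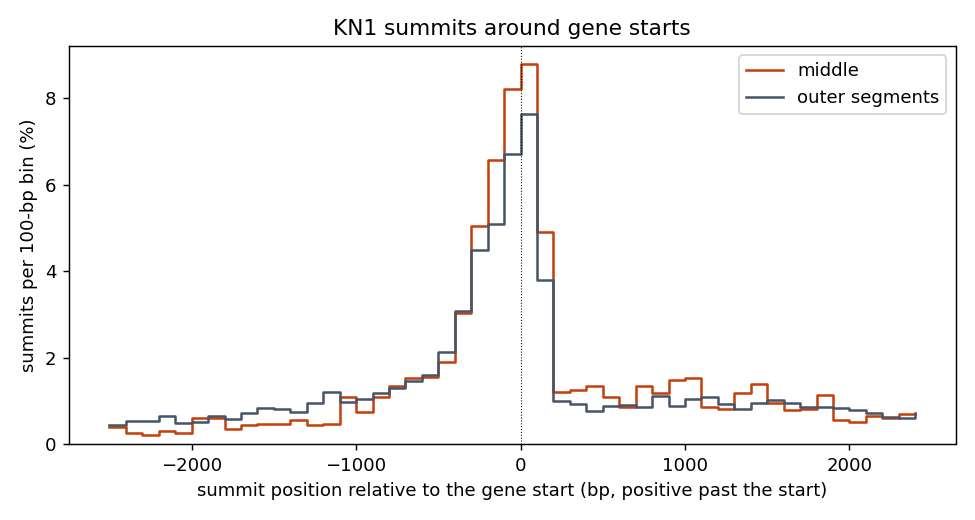
Share of summits (y axis, percent per 100-bp bin) by position relative to the start of the listed gene (x axis, bp, positive past the start, which in short genes reaches beyond the gene end), for the 2299 middle and the 8036 outer peaks with a nuclear gene. The middle line stands above the outer one in the bins next to the start, with its highest bin at 8.79%, against 7.64%.

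The share of summits inside a gene was higher in the middle in the pooled counts, a difference that did not pass the test over chromosomes. The pooled share was 36.5% (840 of 2299, exact 95% interval 34.6 to 38.5%) in the middle and 31.5% (2532 of 8036, 30.5 to 32.5%) in the outer segments. These intervals cover the counting of peaks only. Within the middle the pooled share was uneven, with 39.9% in segment 4, 38.7% in segment 5 and 33.4% in segment 6. Just outside the middle it was 37.0% in segment 3 and 34.4% in segment 7. In the outer segments it was 33.5% in segment 1 and 30.0% in segment 10. Segment 6 was thus below both neighbours of the middle and close to segment 1. The shares by segment were not tested. Over chromosomes the share averaged 36.3 ± 4.16% in the middle and 31.8 ± 3.20% in the outer segments (SD, n = 10), and the difference of 4.52 percentage points missed the adjusted threshold (exact permutation p = 0.0449, adjusted p = 0.0622). The middle was higher on 9 chromosomes, from 0.022 percentage points on chromosome 7 to 11.6 on chromosome 6. On chromosome 4 it was lower, 30.7% in the middle against 40.4% in the outer segments. Without chromosome 4 the difference was 6.10 points and the adjusted p 0.00703, while leaving out each other chromosome gave adjusted p of up to 0.124.

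At equal gene length the excess of summits inside genes, taken for the middle as a whole and not by segment, was similar in size. With the shares averaged over 5 length classes by the same weights in both zones, the middle had 36.6 ± 3.70% and the outer segments 32.0 ± 2.86% (SD, n = 10; exact permutation p = 0.0293, adjusted p = 0.0439). It lost the adjusted threshold when any of 8 chromosomes was left out, with adjusted p up to 0.0879. By class, models under 1 kb had 13.3% of their summits inside in the middle (57 of 428) and 7.69% in the outer segments (108 of 1405). For genes of 1 to 2 kb the shares were 28.4% in the middle and 22.2% in the outer segments, and for genes of 2 to 4 kb they were 39.0% in the middle and 37.6% in the outer segments. Genes of 4 to 8 kb had 51.2% in the middle (291 of 568) and 42.7% in the outer segments (855 of 2001). Genes over 8 kb had 51.6% in the middle and 46.0% in the outer segments. The middle was thus higher in all 5 classes, with the smallest gap at 2 to 4 kb.

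Inside genes, summits were most frequent near the start in both zones. The first segment of 10 along the gene held 41.1% of the summits inside genes in the middle (345 of 840) and 39.8% in the outer segments (1009 of 2532). The last held 10% in the middle and 11.3% in the outer segments, and the sixth held 3.57% in the middle and 5.37% in the outer segments. These shares were not tested.

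**Figure D3:**
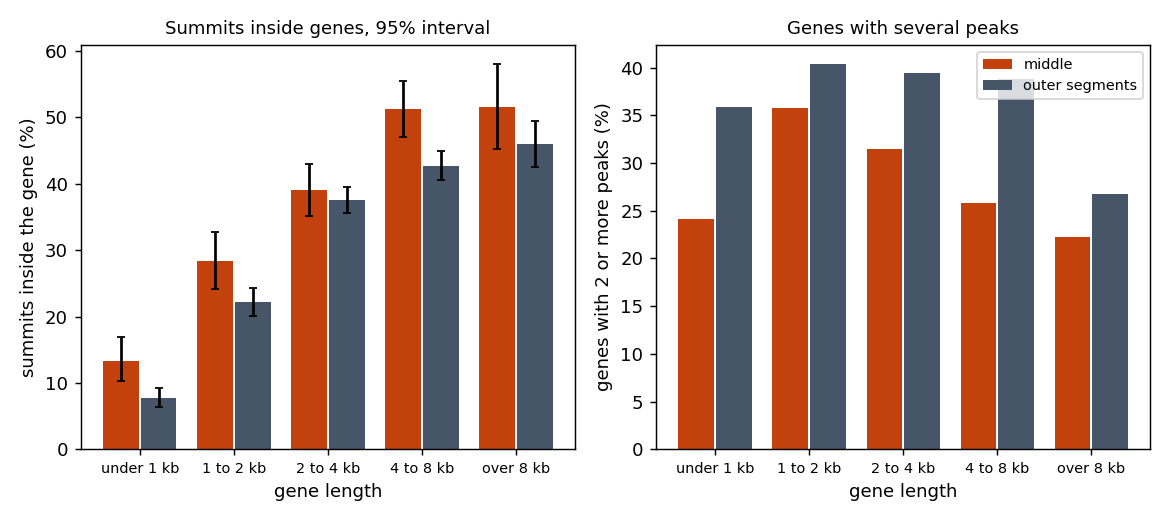
Share of summits inside the gene (left, percent, bars with exact 95% binomial intervals) and share of genes with 2 or more peaks (right, percent), by length of the gene, for the middle and the outer segments. In each length class the middle has the higher share inside and the lower share of genes with several peaks.

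Genes in the middle carried fewer listed peaks each. The absent peak numbers, 27.0% in the middle and 11.3% in the outer segments, have no known gene. The comparison therefore holds for listed peaks only. Of the 1682 genes, 1207 (71.8%) had 1 peak, 347 had 2 and 128 (7.61%) had 3 or more. In the outer segments 3223 of 5146 genes (62.6%) had 1 peak, 1204 had 2 and 719 (14.0%) had 3 or more. The mean number of peaks per gene over chromosomes was 1.39 ± 0.0539 in the middle and 1.58 ± 0.0681 in the outer segments (SD, n = 10). It was lower in the middle on all 10 chromosomes (exact permutation p = 0.00195, adjusted p = 0.00439). The share of genes with 2 or more peaks averaged 27.9 ± 3.24% in the middle and 37.1 ± 3.46% in the outer segments and was likewise lower on all 10 (exact permutation p = 0.00195, adjusted p = 0.00439). Its middle values ranged between 21.0% on chromosome 2 and 30.6% on chromosome 9, and its outer values between 29.7% on chromosome 4 and 42.5% on chromosome 10.

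In the pooled counts the lower number of peaks per gene was found in all 5 length classes. For genes of 4 to 8 kb, 25.8% in the middle and 38.8% in the outer segments had 2 or more peaks. For models under 1 kb the shares were 24.2% in the middle and 35.9% in the outer segments. With only summits inside the gene or within 2 kb of it, a setting chosen after the data had been seen, the number per gene was 1.33 in the middle and 1.45 in the outer segments, lower in the middle on all 10 chromosomes (exact permutation p = 0.00195, adjusted p = 0.00553).

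The differences in position between the zones were smaller when only genes with 1 listed peak were kept. Among genes with 1 listed peak, another setting added later, the share of summits beyond 2 kb was 9.49% in the middle and 9.91% in the outer segments, lower on 5 of 10 chromosomes (exact permutation p = 0.775, adjusted p = 0.942). In the same genes the share up to 500 bp upstream was 30.8% in the middle and 28.9% in the outer segments (exact permutation p = 0.357, adjusted p = 0.552). The log2 difference in median distance outside genes was -0.22 there, lower in the middle on 7 of 10 chromosomes, and no longer passed (exact permutation p = 0.0352, adjusted p = 0.0996). The position differences given above are therefore seen over all genes and were not shown within genes of 1 peak.

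**Figure D4:**
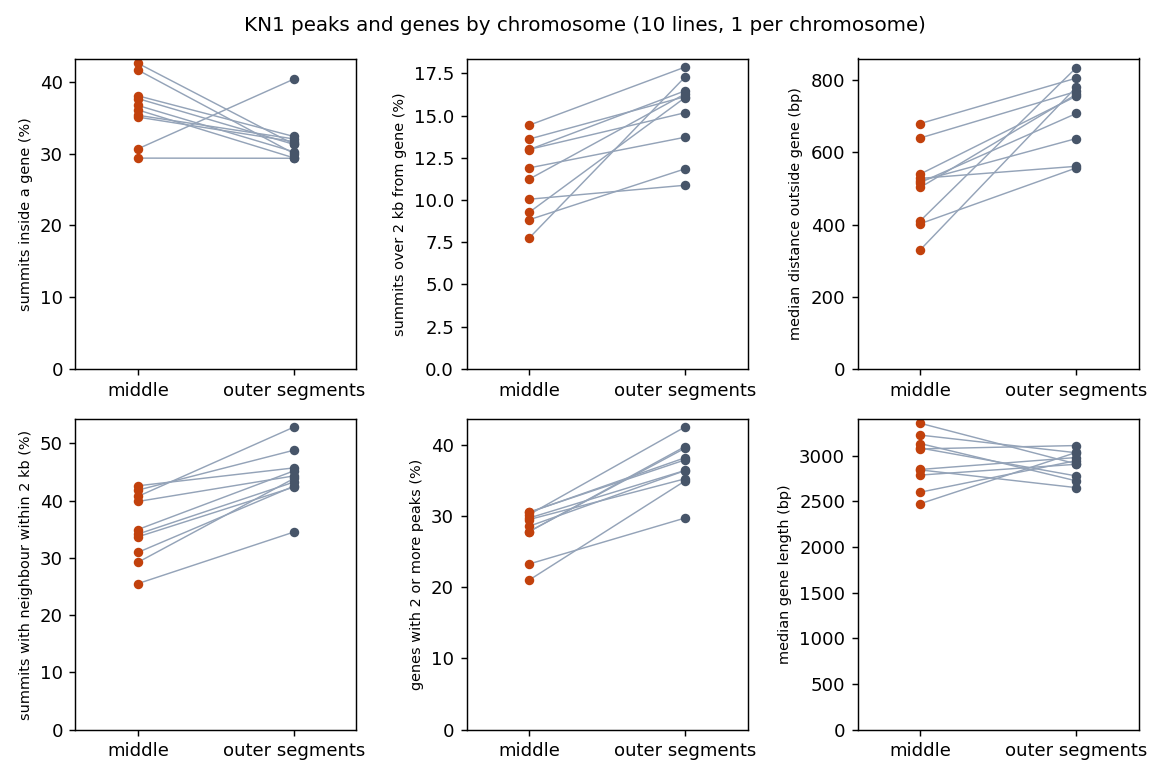
Values of 6 measures (y axes) in the middle and in the outer segments of each chromosome, with 1 line joining the values of each of the 10 chromosomes. All lines run the same way for summits over 2 kb from the gene, distance outside the gene, neighbours within 2 kb and genes with 2 or more peaks, 9 of 10 do so for summits inside a gene, and gene length splits 5 against 5.

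A small set of genes in the middle carried many peaks. There were 11 genes with 5 or more (0.654% of 1682), against 90 in the outer segments (1.75% of 5146). The highest number, 7, was at Zm00001d029934 on chromosome 1 (chr1:95220121-95221774, plus strand, 1654 bp). Its summits ran over 8.11 kb, with 3 upstream, 1 inside and 3 downstream of the gene. Upstream, the folds were 7.01, 18.2 and 50.1 at 4253, 1476 and 410 bp from the start. Inside the gene the fold was 3.16, and past its end the folds were 62.4, 5.26 and 9.82. The highest fold on each side thus belonged to 1 peak, 50.1 upstream and 62.4 downstream, and the second upstream fold of 18.2 was also above the third quartile of the middle peaks, 16.5.

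Zm00001d036283 on chromosome 6 (chr6:81809428-81812765, plus strand) had 6 peaks, all of moderate fold, from 4.91 to 11.6, with 4 upstream and 2 inside. The other 9 had 5 peaks each. On chromosome 10 there were 3 of them, Zm00001d024621, Zm00001d024672 and Zm00001d024770, with highest folds of 35.8, 75.02 and 24.5. Zm00001d003993 on chromosome 2 reached a fold of 62.4 just downstream, while its other peaks had folds from 3.70 to 18.2. Zm00001d020267 on chromosome 7 had 1 strong peak, with a fold of 48.0 beyond its end, and 4 with folds from 4.56 to 5.96. At Zm00001d036736 on chromosome 6 several peaks were high, with folds of 41.4, 33.7 and 23.8 among the 5. Zm00001d041327 on chromosome 3, Zm00001d015459 on chromosome 5 and Zm00001d051172 on chromosome 4 had highest folds of 40.3, 23.5 and 36.8. At 3 of the 11 genes (Zm00001d029934, Zm00001d003993 and Zm00001d024672) the strongest peak exceeded a fold of 60. In each of these cases its summit lay outside the gene, though at Zm00001d029934 and Zm00001d003993 the peak itself overlapped the gene end.

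Neighbouring summits in the middle were spread over a wide range of distances. The median distance between neighbouring listed summits was 87.9 kb in the middle (quartiles 3.06 and 296.6 kb, 2295 pairs), against 8.21 kb in the outer segments (quartiles 1.88 and 61.0 kb, 8065 pairs). By chromosome the median ranged between 36.7 kb on chromosome 6 and 219 kb on chromosome 2 in the middle. In the outer segments it ranged between 6.39 kb on chromosome 10 and 28.5 kb on chromosome 4. The groups did not overlap, and the mean log2 difference was 3.36 ± 0.74 (SD, n = 10), a ratio of 10.3 (exact permutation p = 0.00195, adjusted p = 0.00439). A lower density gives wider spacing by construction, so spacing and density are not separate results. Over all peaks pooled, median spacing was 10.7 times wider in the middle, while listed density was 5.26 times higher in the outer segments. Whether spacing differs beyond density was not tested.

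All classes of pairs under 100 kb took lower shares in the middle. Of the pairs, 9.28% in the middle and 11.04% in the outer segments were less than 1 kb apart, and 11.3% in the middle and 15.4% in the outer segments were 1 to 2 kb apart. Pairs of 2 to 10 kb made up 13.7% in the middle, against 26.0%, and pairs of 10 to 100 kb made up 17.5%, against 31.4%. Pairs of 100 kb to 1 Mb were 42.8% in the middle and 16.0% in the outer segments. Stretches over 1 Mb were 123 of the 2295 pairs in the middle (5.36%) and took up 41.5% of the length between listed neighbours there. In the outer segments they were 9 of 8065. A neighbour within 2 kb was found for 35.3 ± 5.79% of summits in the middle and 44.3 ± 4.71% in the outer segments (SD, n = 10). The share was lower in the middle on all 10 chromosomes (exact permutation p = 0.00195, adjusted p = 0.00439). It also depends on density, and a difference beyond that in density was not tested.

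**Figure D5:**
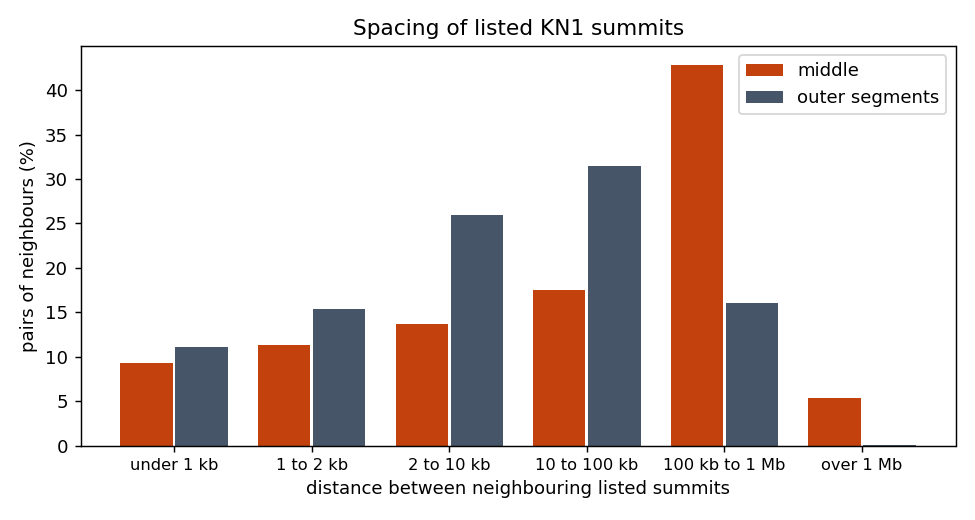
Share of pairs of neighbouring listed summits (y axis, percent) by the distance between them (x axis) in the middle (2295 pairs) and in the outer segments (8065 pairs). Middle pairs are most often 100 kb to 1 Mb apart (42.8%), outer pairs most often 10 to 100 kb apart (31.4%).

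More numbers were missing from the series of peak names in the middle. Peak numbers rise with position on all 10 chromosomes, so a number missing between neighbouring listed peaks is taken here as a peak called between them. In the middle 483 of 2295 pairs (21.0%) had such a number between them, against 625 of 8065 (7.75%) in the outer segments. The share was higher in the middle on all 10 chromosomes (22.4 ± 6.27% and 8.05 ± 2.74%, SD, n = 10; exact permutation p = 0.00195, adjusted p = 0.00439). In all, 852 numbers were absent between middle peaks, 27.0% of 3157, and 1029 between outer peaks, 11.3% of 9114. With them the density was 5.0 peaks per Mb in the middle and 21.7 in the outer segments, a ratio of outer to middle of 4.33, against 5.26 for listed peaks. Among pairs with no absent number the median spacing was 33.2 kb in the middle and 6.39 kb in the outer segments. Whether the absent peaks lay far from genes could not be read from the list.

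The longest stretches without a listed summit exceeded those of the outer segments on all chromosomes but chromosome 6. Their lengths also depend on density, and the comparison was not tested. The longest, 10.98 Mb, lay on chromosome 7 between summits at 56867491 and 67849049, from 31.2 to 37.2% of the extent, with 2 absent numbers in it. On chromosome 1 a stretch of 10.5 Mb (128845608 to 139331707) held 6 absent numbers. On chromosome 4 a stretch of 10.1 Mb (105381411 to 115492003) held none, so by the numbering no unlisted peak lies there either. Chromosomes 3 and 5 followed, with 9.89 Mb and 4 absent numbers and with 7.83 Mb and 11. On chromosome 6 the longest was 3.25 Mb in the middle and 6.05 Mb in the outer segments.

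At the other extreme were runs of summits within 20 kb. The fullest runs in the middle held 7 summits, against 13 in the outer segments. Runs of 5 or more took in 151 middle peaks (6.55%) and 2141 outer peaks (26.5%). Such runs also depend on density, and the difference was not tested. Of the 3 middle runs with 7 summits, 1 was the set at Zm00001d029934. Another spanned 19.1 kb on chromosome 6 (chr6:91323485-91342634) over 3 genes, Zm00001d036533, Zm00001d036534 and Zm00001d036536, with folds from 3.70 to 54.0. The third, at chr6:99404750-99416581, took in Zm00001d036736 and Zm00001d036737, with folds from 5.96 to 41.4. Chromosome 6 also held a run of 6 at Zm00001d036283, so that 3 of the 5 runs named here lay on the chromosome with the densest middle. Not every run of 6 may be among the 5. The remaining named run held 6 summits on chromosome 1 over Zm00001d031195, Zm00001d031196 and Zm00001d031197, with folds from 4.56 to 14.0.

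Enrichment of the middle peaks was slightly lower than at the ends. Folds ranged between 2.74 and 86.2 in the middle, with a median of 8.41, against a median of 9.47 in the outer segments. The median pileup at the summit, the number of overlapping ChIP reads solved from fold and p-value, was 24 in the middle (range 8 to 245) and 27 in the outer segments. By chromosome the median was lower in the middle on 8, equal on chromosome 8 and higher on chromosome 4, where it was 9.29 in the middle and 8.82 in the outer segments. The mean log2 difference was -0.18 ± 0.15 (SD, n = 10; exact permutation p = 0.00781, adjusted p = 0.0141). A fold of at least 20 was reached by 451 of 2305 middle peaks (19.6%, 95% interval 17.96 to 21.2%) and 1877 of 8085 outer peaks (23.2%). Of all chromosomal peaks 22.4% did. The interval covers the counting of peaks only, and this share was not tested over chromosomes. It was higher in the middle on chromosome 4 (21.0% against 17.9%) and chromosome 5 (22.7% against 22.2%), and lower on the other chromosomes. A fold of at least 50 was reached by 63 middle peaks (2.73%) and 333 outer peaks (4.12%).

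The difference in fold was seen outside genes. For summits outside genes the mean log2 difference was -0.26 (exact permutation p = 0.00781, adjusted p = 0.0141). The pooled median for upstream summits was 9.11 in the middle and 10.9 in the outer segments. For downstream summits the gap was smaller, 9.82 in the middle and 10.5 in the outer segments, and the sides were not tested apart. For summits inside genes the median was 7.52 in the middle and 7.71 in the outer segments, and the mean log2 difference of -0.04 did not pass the test (exact permutation p = 0.266, adjusted p = 0.342). Whether the inside and outside differences themselves differ was not tested. Both splits were added after the data had been seen. Peaks over 2 kb from the gene had a median fold of 9.11 in the middle and 11.2 in the outer segments.

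Peaks were also narrower in the middle, with a median width of 424 bp against 460 bp in the outer segments. The log2 difference of -0.12 ± 0.09 (SD, n = 10) was negative on all 10 chromosomes (exact permutation p = 0.00195, adjusted p = 0.00439). Peaks of -log10 q of at least 10 gave -0.058 (exact permutation adjusted p = 0.0885), and peaks above the median score -0.070 (adjusted p = 0.0664). Whether the difference in width is separate from that in fold was not tested. Input was raised above its genome-wide floor of 1.85 at 189 middle peaks (8.20%) and 654 outer peaks (8.09%), a difference that did not pass the test (exact permutation adjusted p = 0.854). Only 1 middle peak had an input level above 3 times the floor. It lay on chromosome 5 next to Zm00001d015327, with an input level of 72.9, a pileup of 235 and a fold of 3.19. Peaks listed with 2 or more genes were 57 in the middle, and their share did not differ past the test either (exact permutation adjusted p = 0.861).

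The 10 strongest middle peaks had 6 summits upstream, 3 downstream and 1 inside a gene. Over all middle peaks with a nuclear gene, 42.8% of summits were upstream, 20.7% downstream and 36.5% inside, and the 10 were not tested against these shares. The strongest of all was on chromosome 6 at chr6:95058606-95059249, 1297 bp upstream of Zm00001d036623, a model of 405 bp on the minus strand. Its fold was 86.2, its pileup 245 overlapping reads and its -log10 q 412, which ranked it 14 among all chromosomal peaks. Of the 100 strongest chromosomal peaks 4 lay in the middle and 53 in the outer segments, while the middle held 10.9% of all chromosomal peaks and the outer segments 38.2%. The second was at chr8:97445895-97447201, with its summit 736 bp upstream of Zm00001d010055, a fold of 77.8 and a width of 1307 bp. The third, on chromosome 3 with a fold of 76.1, lay 4630 bp upstream of Zm00001d041602, a model of 72 bp that is also listed under an RNA gene identifier.

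Several of the strongest middle peaks were far from their listed gene. The peak of fold 75.02 at Zm00001d024672 on chromosome 10 had its summit 4430 bp upstream. On chromosome 7 the strongest, with a fold of 74.7, lay 2963 bp upstream of Zm00001d020348, and on chromosome 6 a peak of fold 74.3 lay 2842 bp downstream of Zm00001d036698. On chromosome 1 the strongest, also at 74.3, lay 1482 bp downstream of Zm00001d030940. Zm00001d041491 on chromosome 3 had a fold of 73.7 at 1715 bp upstream, and Zm00001d010138 on chromosome 8 had 72.9 at 1017 bp downstream. The only one with its summit inside a gene was on chromosome 6, 239 bp past the start of Zm00001d035926. Its fold was 72.2, and its summit lay 430 bp upstream of the divergent Zm00001d035925, since both genes are listed for it.

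On the remaining chromosomes the strongest middle peak was weaker. Chromosome 5 reached a fold of 67.3, at a summit 61 bp inside Zm00001d015269. The peak of Zm00001d003993 on chromosome 2, with 62.4, had its summit 244 bp past the gene end. On chromosome 9 the highest fold was 54.7, 639 bp downstream of Zm00001d046404, and on chromosome 4 it was 53.6, 78 bp upstream of Zm00001d051005. On 8 of the 10 chromosomes the strongest middle peak lay in the sixth segment, as did 9 of the 10 strongest over all and 37 of the 63 middle peaks with a fold of at least 50. The sixth segment held 47.0% of the middle peaks with a nuclear gene, so part of this follows from its number of peaks, and no test was made.

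Named microRNA genes with a peak numbered 4 in the middle (2305 peaks) and 20 in the outer segments (8085 peaks). The counts are small and were not tested. Among them, 3 of the family miR156, known to delay the change to the adult phase by repressing SPL transcription factors, had 1 peak each upstream. The fold was 7.36 at 497 bp for zma-MIR156i on chromosome 4, 8.06 at 2589 bp for zma-MIR156d on chromosome 5 and 5.96 at 586 bp for zma-MIR156k on chromosome 6. The remaining one, zma-MIR482 on chromosome 1, had a fold of 8.76 at a summit 148 bp downstream. The summit of that peak also lies inside Zm00001d030666 on the opposite strand, and the peak itself spans the whole of zma-MIR482. Of the 4 folds, that of zma-MIR482 was above the median of the middle peaks, 8.41, and the other 3 were below it.

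The values on either side of the borders of the middle are given without a test. Density stepped sharply at some of them. It was 0.494 peaks per Mb in the fourth segment of chromosome 7, against 2.58 in the third. In the sixth segment of chromosome 4 it was 4.38, against 11.8 in the seventh. On chromosome 10 the middle side was denser at both borders, with 7.82 in the sixth segment against 4.44 in the seventh. The fourth segment there had 1.92 against 1.39 in the third. It was also denser than the third on chromosome 8 (3.93 against 1.82) and chromosome 6 (3.16 against 2.76). The nearest peaks on the inner side of the 20 borders had folds between 3.86 and 24.9 (median 6.49) and lay 8.81 kb to 4.76 Mb from the border. Those on the outer side had folds between 4.91 and 50.8 (median 10.2) and lay 44.8 kb to 4.35 Mb from it. The share of summits over 2 kb from the gene was 12.9% in the third segment, 10.8, 10.6 and 12.3% in the segments of the middle and 13.7% in the seventh. The share of genes with 2 or more peaks was 31.8% in the third, 28.1, 24.6 and 30.4% in the segments of the middle and 32.8% in the seventh. The fifth segment was the lowest of the 10 for both.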

How the data were processed

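ChIP-seq of tagged KN1 and its input, 1 library each, gave 1 peak table, which has no header and 1 row per peak and gene. Tools named in the submitters' processing notes are MACS2, SAMtools 1.11, Bowtie2 2.4.2 and fastp 0.21.0. Per the peak names, duplicates were removed and the effective genome size was 700 Mb. The genome build is not stated in the labels, and the gene identifiers are those of AGPv4. The fold that the authors deposited is a linear ratio of ChIP to input, with 1 added to each. The authors also deposited a −log10 p-value, a −log10 q-value and a score, and no library totals, so depth is known only through the pileups. Fold at most peaks is set against a genome-wide input floor that depends on the genome size setting.

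Members, gene lists and measures were chosen with earlier results of these data known. Peak starts were turned into 1-based positions. Gene coordinates were kept, since 114 of 114 mitochondrial genes matched the RefSeq table. Each summit was placed by strand against the nuclear gene nearest to it (15 middle summits were equally near 2 or more genes, and the first by position was taken). Pileup and input were solved from fold and p-value under the MACS2 formulas, with a relative error of at most 8.1e-06. Raised input means over 1.02 times the floor.

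The 14 designed measures and 4 added after the data had been seen were compared by an exact sign-flip permutation test over chromosomes. Shares have exact Clopper-Pearson 95% intervals. The text names the 10 strongest middle peaks, the strongest on each chromosome and the genes with most peaks. It also names the 5 longest genes with a summit inside, the 5 longest stretches and 5 of the fullest runs within 20 kb. All microRNA genes and peaks with input over 3 times the floor are named too. On simulated data the code recovered planted pileups, input levels and summit positions, and a planted difference in a share. That difference was larger than the observed one inside genes, and its peaks were drawn independently. The other measures were not simulated. Software was scipy 1.17.1, pandas 2.3.3, numpy 2.4.6 and matplotlib 3.10.9 under Python 3.11.15. Sequences and gene symbols were not used here.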

Additional observations from a re-analysis of the deposited data

How the results depend on the processing

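Of 313 retested values over 18 measures, 288 kept their call, and their direction where they had one, at the adjusted threshold of 0.05. Spacing, neighbours within 2 kb, peaks per gene, genes with 2 or more peaks and fold kept theirs under every tested alternative run for them. Absent numbers kept theirs with the other zone borders and with each chromosome left out, and have no value where peaks were filtered, since a dropped peak would count as absent. The 18 values of all peaks pooled have no test, and each lay within 1 SD of the value over chromosomes. No called difference changed direction.

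The share inside genes was raised past the threshold by 2 settings, genes of at least 1000 bp (4.96 percentage points) and peak edges (5.70). At equal gene length the difference of 4.67 points lost the call with a middle of 0.35 to 0.55 (4.09), with scores above the median (5.57), with input at the floor (4.14) and with genes of 1 listed peak (2.22). The share up to 500 bp upstream, 3.75 points, lost it with the narrower middle (4.11), with scores above the median (4.22) and with genes of 1 listed peak (1.92). Genes of 1 listed peak also took the call from the share over 2 kb (-0.42 points) and the log2 distance outside genes (-0.22). The log2 difference in width lost it with scores above the median (-0.070) and with −log10 q of at least 10 (-0.058), and that in fold outside genes at the same q (-0.11). The input and 1-peak settings were added after seeing the data. They and the stricter scores test fewer peaks, and the cause was not tested.

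Leaving out each chromosome gave 3.72 to 6.10 points for the share inside genes, 4.03 to 6.17 at equal gene length and 3.24 to 4.67 for the share up to 500 bp upstream. Over all alternatives the adjusted p (exact permutation test) ran from 0.00703 to 0.436 for the share inside genes, to 0.480 at equal gene length, from 0.00781 to 0.552 for the share up to 500 bp upstream, from 0.00391 to 0.942 for the share over 2 kb and to 0.0996 for distance. It ran from 0.00553 to 0.0885 for width and from 0.00391 to 0.0387 for peaks per gene. No paired analysis was possible because ChIP and input have 1 library each, so no replicate numbers pair them. The zones are paired by chromosome in the test itself. The weakest middle peaks rest on pileups of 8 reads, and peaks whose edge lies over 4998 bp from a gene are not in these values.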
